A study of Arabidopsis lyrata with 12 samples.

Results

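The amount, density and place of the histone mark H3K4me3 inside genes were set against the mRNA level of the same genes in young leaves of Arabidopsis lyrata accession MN47, a close relative of Arabidopsis thaliana. The genes were those with at least 200 bp of their span, from start to end, under H3K4me3 domains. There were 19071 such genes among the 24268 genes for which an mRNA value was deposited. Of the 12 libraries of the study, 3 were used for the main relation, 2 of H3K4me3 and 1 of mRNA, all from plants of the same accession grown in soil under 16 hours of light at 22.5 °C. The labels name no treatment and no mutation. The other libraries profiled H3K27me3, H3K27me1 and 5-methylcytosine (5mC, 2 libraries each) and inputs, and the domain lists of those 3 marks are used only as a second readout. Both H3K4me3 libraries are represented by 1 list of domains and the mRNA by 1 library, so no value below has a replicate error and no test between conditions exists. The tissue label could not be checked against marker genes, because the identifiers in the files are paired with no names.

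H3K4me3 is histone H3 carrying 3 methyl groups on lysine 4. In plants it is laid down by Trithorax-type methyltransferases, is read by proteins with PHD fingers, and is known from the nucleosomes just downstream of the transcription start of genes read by RNA polymerase II. It is known as a mark of active genes, in contrast to H3K27me3, which Polycomb complexes place over genes held silent. Whether more of the mark goes with more mRNA, once a gene has it at all, is the question of this comparison.

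A set of 4 measures of the mark was taken in each gene. The first is the number of base pairs under domains, and the second is the same as a share of the span. The third is the score per base pair, the whole-number score that the authors gave each domain divided by its width. What the score counts is not stated, so it is used only to rank domains within this list. The words dense and thin below mean a high and a low score per bp, whatever the score counts. The fourth is the gap, the distance from the nearer gene end to the first covered base inside, which is 0 when a domain reaches an end. The files give no strand, so the nearer end can be the start or the end of the transcript. The mRNA value is the mean exon coverage, and it is called coverage below. Its depth is unknown and its lowest value in the table is exactly 1. Whether the mean runs over all bases of the exons or only over covered ones is not stated. Fold ratios of coverage therefore describe the deposited values and may not be fold ratios of mRNA amount. Length was matched by dividing the 19071 genes into 10 groups of nearly equal size by length (length deciles) and ranking within each.

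A typical gene with H3K4me3 had 750 bp of it (quartiles 600 and 1019 bp, range 201 to 4651 bp). This was 35.3% of the span at the median (quartiles 22.3 and 55.2%), and 303 genes lay under the mark along their whole length. The median score per bp was 1.33 (quartiles 0.957 and 1.78, range 0.410 to 6.14). One domain supplied the mark in 17810 genes, and 1261 had 2 or more domains. In 10110 genes (53.0%) the gap was 0, and in 16836 genes it was under 150 bp, the spacing of the grid on which the domain edges lie. Coverage of the 19071 genes had a median of 9.31 (quartiles 4.48 and 19.4), against 7.02 over all 24268 genes.

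The quantity of the mark changed little with gene length. The median was 600 bp in the shortest length decile (202 to 1096 bp), 750 bp in the next, and between 769 and 839 bp in the other 8, up to genes of 26566 bp. The share of span therefore went down with length, from a median of 76.8% in the shortest decile to 12.3% in the longest, and its Spearman correlation with length was -0.78. Score per bp was almost unrelated to length (Spearman 0.012). Coverage itself was slightly lower in longer genes (Spearman -0.068 over 19071 genes), with decile medians between 8.23 and 10.4.

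At matched gene length, genes with more base pairs of H3K4me3 had more mRNA. From the lowest to the highest quintile of base pairs within length deciles, median coverage was 4.45, 8.16, 9.31, 11.8 and 17.5, with a median of 501 bp in the lowest and 1328 bp in the highest. The quartiles were 2.04 and 9.004 in the lowest quintile and 8.17 and 42.6 in the highest, so the groups overlapped: 10.04% of the lowest quintile lay above the median of the highest, and 11.9% of the highest lay below the median of the lowest. In finer classes of 10% the rise was not unbroken. The fourth class from the bottom (median 727 bp) had a median coverage of 9.28 and the fifth (median 750 bp) 8.43. The ratio of the highest to the lowest quintile, taken within each length decile, averaged 4.06 (geometric mean). The within-decile Spearman correlation averaged 0.41 (SD over the 10 deciles 0.032, range 0.35 to 0.46) and was positive in 10 of 10. These correlations run across genes that share 1 mRNA library and 1 domain list, and 1442 genes also share a domain with another listed gene, so they describe these files and carry no p. With only the 50% of domains that had the highest scores (11127 genes), the correlation was 0.28 and the ratio 2.47.

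In classes of base pairs, the widest fold step in mRNA lay between 350 to 499 bp and 500 to 649 bp. Medians still rose at the high end, where the classes were wider. Without matching, the 809 genes with 200 to 349 bp had a median coverage of 2.34 and the 1531 with 350 to 499 bp a median of 3.33. The 3101 genes with 500 to 649 bp reached 6.62 and the 4628 with 650 to 799 bp, the fullest class, 9.02. Beyond that the medians were 10.8 for 800 to 949 bp, 13.3 for 950 to 1249 bp, 16.8 for 1250 to 1549 bp and 19.4 for 1550 to 1999 bp. The 264 genes with 2000 bp or more had a median of 31.96 (quartiles 12.99 and 70.9). Median gene length was between 2369 and 2420 bp in the classes between 800 and 1549 bp, whereas it was 1779 bp in the lowest class and 3380 bp in the highest.

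Around the 200 bp limit coverage showed no step. Just outside the set were 173 genes with 150 to 199 bp and a median of 2.20 (quartiles 1.32 and 3.97). The 54 with 200 to 249 bp, just inside, had 2.55 (quartiles 1.38 and 5.30). The 4948 genes with 0 bp had a median of 1.54.

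**Figure D1:**
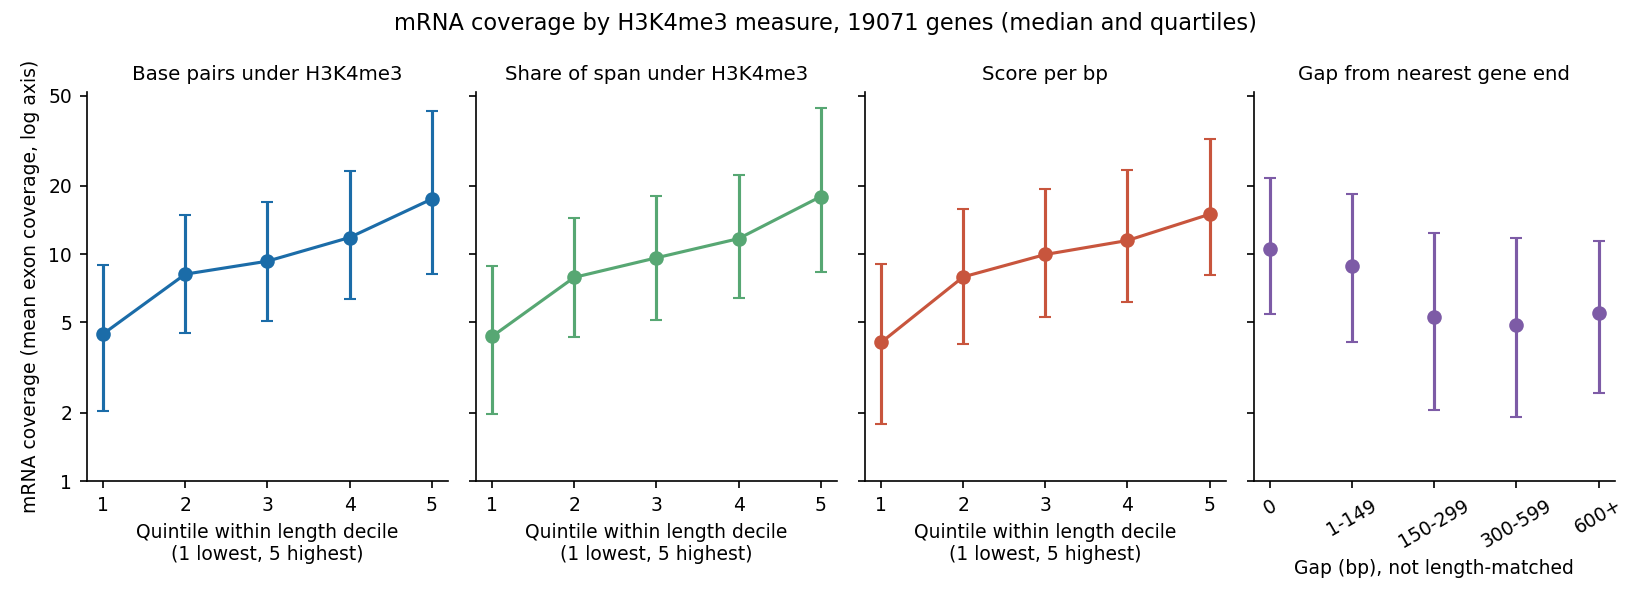
Median mRNA coverage (points, log axis) with quartiles (bars) by quintile of 3 H3K4me3 measures within gene length deciles, and by class of the gap, which is not length-matched. Coverage was higher in each successive quintile of base pairs (4.45 to 17.5), of share and of score per bp, and lower with a gap of 150 bp or more.

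Share of span gave almost the same order as base pairs, because a share at matched length is a rescaled number of base pairs. Its matched Spearman correlation averaged 0.41 (SD over deciles 0.040) and the ratio of quintiles 4.33. With the 50% of domains of highest score they were 0.30 and 2.65. The measures parted somewhat in the shortest and longest deciles, which span a wide range of lengths. In the shortest, in which base pairs themselves followed length (Spearman 0.54), the correlation with coverage was 0.49 for share and 0.46 for base pairs, and in the longest it was 0.36 for share and 0.39 for base pairs. Without matching, share had a Spearman correlation of 0.30 with coverage and base pairs had 0.39.

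Genes with denser H3K4me3, in the sense of a higher score per bp, also had more mRNA. Median coverage over the quintiles of score per bp was 4.08, 7.94, 9.97, 11.5 and 15.0, and median score per bp went from 0.684 to 2.28. The matched Spearman correlation averaged 0.39 (SD over deciles 0.049, range 0.32 to 0.46), and the ratio of highest to lowest quintile 3.90. In the lowest 10% of genes by score per bp the median coverage was 2.91, and in the next 10% it was 5.41. The groups again overlapped, with 13.3% of the lowest quintile above the median of the highest and 7.05% of the highest below the median of the lowest. Among the 11127 genes left by the 50% of domains with the highest scores, the correlation was 0.14 and the ratio 1.499.

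Most genes at the floor of the mRNA table lay outside the set: 1998 of all 24268 genes (8.23%) were listed at exactly 1, and 433 of these had 200 bp or more of H3K4me3 (2.27% of the set). Of the 433, 335 were in the lowest quintile of score per bp (8.79% of that quintile, exact 95% interval 7.91 to 9.73%, close to the share over all genes) and 5 in the highest (0.131%, interval 0.0426 to 0.306%). By base pairs, 282 were in the lowest quintile (6.87%, interval 6.11 to 7.69%) and 16 in the highest (0.420%, interval 0.241 to 0.682%). The intervals cover counting error only. Without the 433 genes the matched correlations were 0.39 for base pairs and 0.36 for score per bp.

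As a ratio of quintile medians, the contrast between much and little H3K4me3 was largest in the shortest genes. The Spearman correlation for base pairs did not fall with length in this way. It was 0.46 in the shortest decile, 0.39 in the next, 0.35 at 1465 to 1749 bp and 0.44 at 3714 to 4902 bp. Base pairs also followed length within the shortest decile (Spearman 0.54), so its quintiles were not fully matched for length. In the shortest decile median coverage was 3.32 in the lowest quintile of base pairs and 26.4 in the highest, a ratio of 7.96. In the longest decile (4903 bp and more) it was 4.28 and 11.5, a ratio of 2.68. The shortest decile stood apart at both ends, with the lowest median of the lowest quintiles and the highest of the highest quintiles. In the other 9 deciles the lowest quintiles had medians between 4.28 and 5.09, and those of the highest quintiles lay between 21.0 and 11.5. For score per bp the ratio was 8.42 in the shortest decile and 2.83 in the longest, with its lowest value, 2.35, in the decile of 3714 to 4902 bp. 

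**Figure D2:**
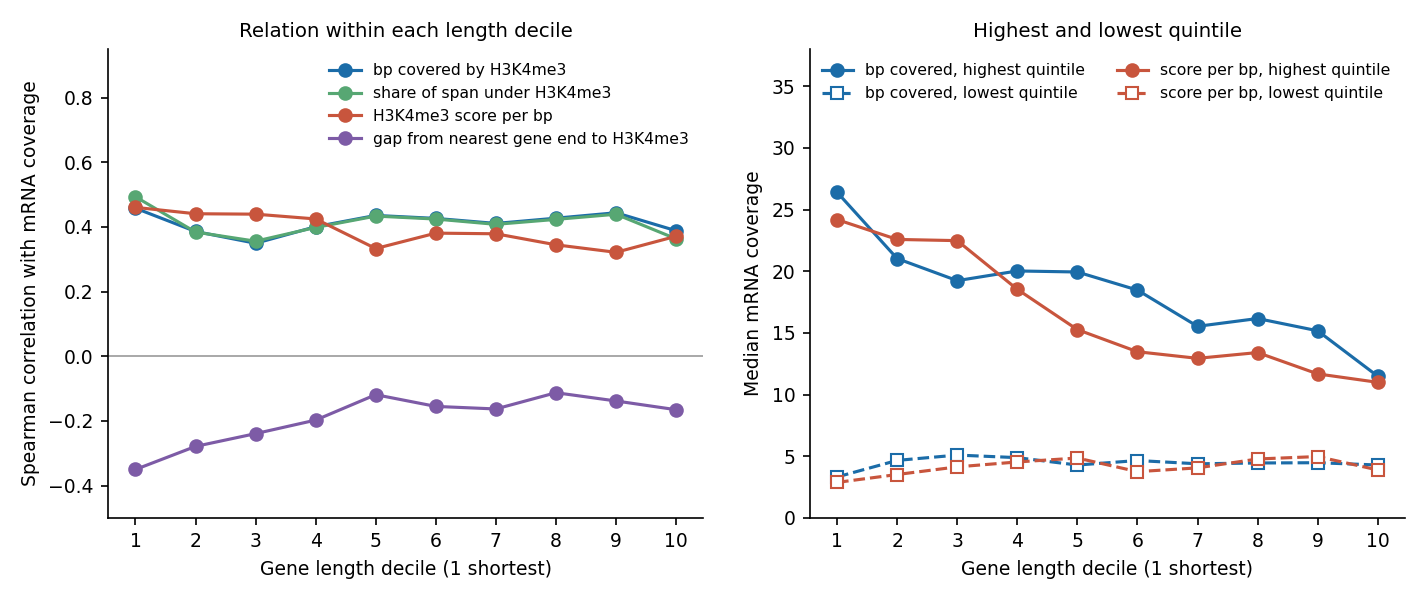
Left, Spearman correlation of 4 H3K4me3 measures with mRNA coverage within each of 10 gene length deciles. Right, median coverage of the highest (filled, solid line) and lowest (open, dashed line) quintile of base pairs and of score per bp in each decile. Base pairs, share and score per bp stayed between 0.32 and 0.49, the gap stayed below 0, and the highest quintiles had lower coverage in longer genes, while the lowest quintiles lay between 2.87 and 5.09, lowest in the shortest decile.

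Base pairs and score per bp were related to each other (Spearman 0.40 over 19071 genes), so each was examined at a given level of the other. With genes divided into 3 equal parts by each measure within length deciles, coverage went up along both. The 3351 genes lowest in both had a median of 3.70 (quartiles 1.75 and 7.89), and the 3017 highest in both had 19.1 (quartiles 9.99 and 44.2). Within the lowest part of base pairs, medians over score per bp were 3.70, 7.30 and 8.52. Within the highest part they were 8.995, 14.2 and 19.1. Genes with many base pairs at a low score (1271 genes, median 1200 bp and 0.888 per bp) and genes with few base pairs at a high score (1021 genes, median 605 bp and 1.87 per bp) had close medians, 8.995 and 8.52.

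**Figure D3:**
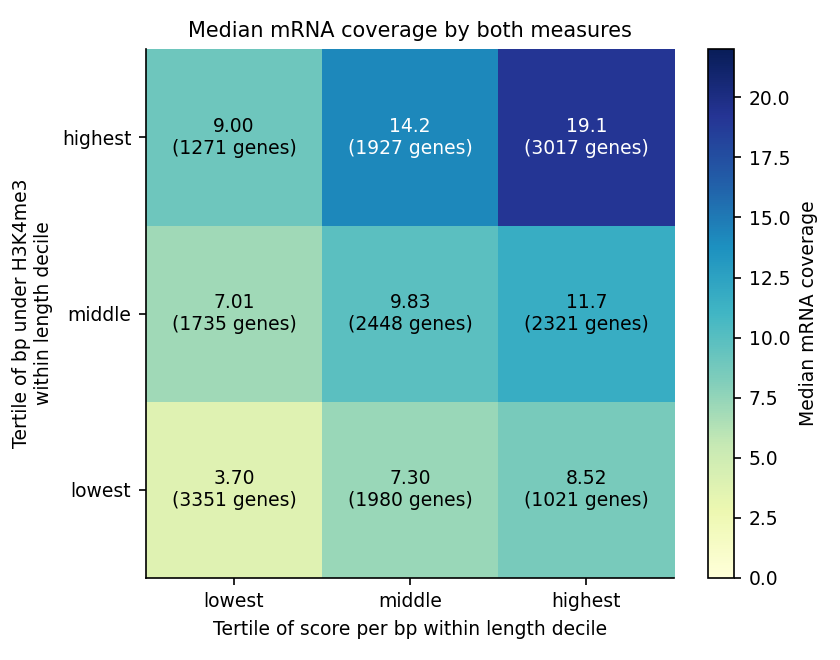
Median mRNA coverage (colour and upper figure in each cell) with the number of genes, for tertiles of base pairs under H3K4me3 (rows) and tertiles of score per bp (columns), both taken within length deciles. Coverage was higher along both directions, from 3.70 in the cell lowest in both to 19.1 in the cell highest in both.

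Partial rank correlations gave the same order. Given length, score per bp and gap, base pairs kept a mean within-decile correlation of 0.30 with coverage (range 0.19 to 0.39). Given length, base pairs and gap, score per bp kept 0.24 (range 0.18 to 0.29). With the 50% of domains of highest score these partial correlations were 0.30 for base pairs and 0.15 for score per bp. In the length deciles of 1097 to 1464 and 1465 to 1749 bp score per bp had the larger partial value (0.25 and 0.29, against 0.19 and 0.19 for base pairs), in the decile of 1750 to 2027 bp both were 0.29, and in the other 7 base pairs had the larger. Share was not entered beside base pairs, since the pair cannot be told apart at fixed length. Most of the spread in mRNA was not shared with the mark: within deciles, length and base pairs accounted for 17.7% of the variance in coverage rank, adding score per bp brought this to 23.7%, and adding the gap to 24.8%.

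Genes in which H3K4me3 began away from both ends had less mRNA. The 10110 genes with a gap of 0 had a median of 10.5 (quartiles 5.44 and 21.7) for mRNA coverage, and the 6726 with a gap of 1 to 149 bp, which is within the resolution of the grid, had 8.85. The 1146 genes with a gap of 150 to 299 bp had 5.29, the 491 with 300 to 599 bp had 4.86 and the 598 with 600 bp or more had 5.51. Within length deciles the Spearman correlation averaged -0.19 (SD 0.076, range -0.35 to -0.11) and was negative in 10 of 10, and genes with a gap above 0 had 0.726 times the median coverage of genes with a gap of 0. The size of this difference went with length: the ratio was 0.391 in the shortest decile and 0.893 in the decile of 3095 to 3713 bp, where it was closest to 1. With the 50% of domains of highest score the correlation was -0.053. Measured instead to the midpoint of the longest covered stretch, the distance from the end had a positive correlation with coverage (0.26); that midpoint lies further in when the stretch is wider (Spearman 0.78 with base pairs).

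The mark was also thinner where the gap was above 0. Median score per bp was 1.43 at a gap of 0, 1.27 at 1 to 149 bp, 0.936 at 150 to 299 bp, 0.823 at 300 to 599 bp and 1.05 at 600 bp or more. At a given tertile of base pairs and of score per bp, genes with a gap above 0 still had the lower median in 9 of 9 combinations, with ratios between 0.637 and 0.951. In 10028 genes with a gap of 0 the domain crossed the end, so the base pairs counted left out part of its width. Base pairs were thus not matched for full domain width. At equal full width, among genes with 1 domain, the ratio of crossing to inside ranged from 0.929 to 1.25 (below). The partial correlation of the gap, given length and both other measures, averaged -0.11 (range -0.18 to -0.058). In the 3 longest deciles, 491 genes had a gap of 600 bp or more, with a median coverage of 5.70 and a score per bp of 1.10, whereas 3009 genes of that length with a gap of 0 had 9.34 and 1.40. What lies at these inner domains was not tested.

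A domain that runs over a gene end loses part of its width when only base pairs inside the gene are counted. Among genes with 1 domain, coverage was therefore also read against the full width of the domain, separately for domains that crossed an end and those that lay wholly inside. Where the domain measured 450 bp, the medians were 3.25 (309 genes, crossing) and 3.08 (1008 genes, inside). At 750 bp they were 9.12 (2214 genes) and 8.28 (1893 genes), at 900 bp 10.7 (2133 genes) and 10.7 (1309 genes), and at 1500 bp 16.4 (351 genes) and 17.0 (186 genes). Over the 9 widths from 300 to 1500 bp the ratio of crossing to inside ranged from 0.929 to 1.25, with the highest value at 1200 bp (16.7 and 13.4). For crossing domains the median did not rise further from 1200 to 1350 and 1500 bp (16.7, 16.3 and 16.4). At equal domain width the 2 classes thus differed less than the widths did, between which coverage differed several-fold. Of the 8961 genes with a gap above 0, 6726 had a gap of 1 to 149 bp. The comparison therefore says little about larger gaps. These width classes were not matched for gene length. Matched for length, the Spearman correlation with coverage was 0.42 for full width and 0.44 for base pairs inside, over the 17810 genes with 1 domain. Without genes whose domain touches another listed gene (16662 genes left) both were 0.44, with ratios of highest to lowest quintile of 4.72 for full width and 4.31 for base pairs inside.

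**Figure D4:**
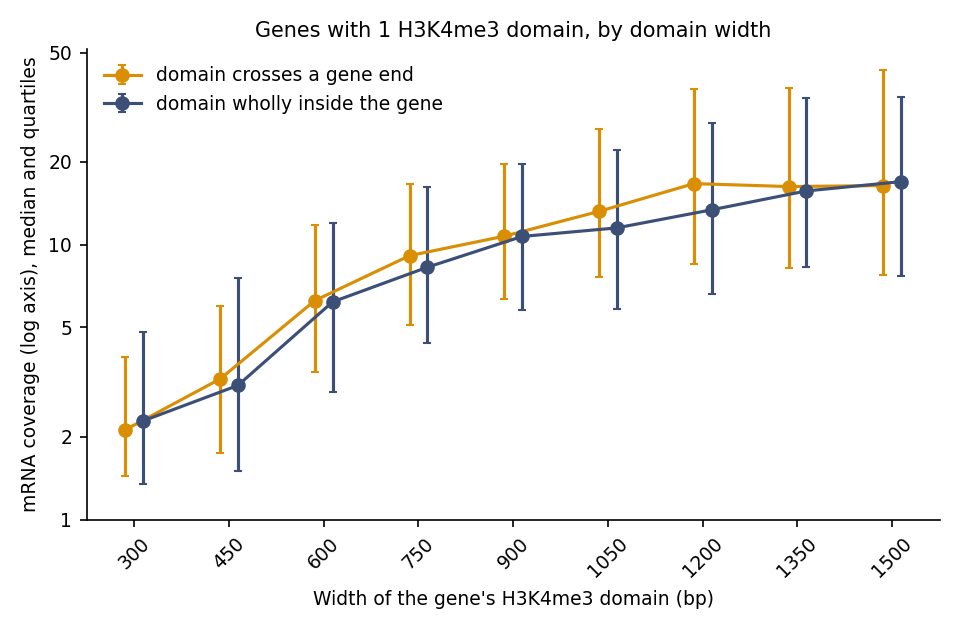
Median mRNA coverage (log axis) with quartiles for genes with 1 H3K4me3 domain, by the width of the domain, for domains that cross a gene end and domains wholly inside. Both lines climb from about 2 at 300 bp (2.12 and 2.29). The crossing line was flat from 1200 bp on (16.7, 16.3 and 16.4), and the inside line reached 17.0 at 1500 bp. The lines lay furthest apart at 1200 bp (16.7 and 13.4).

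Within quintiles of base pairs, genes with H3K4me3 split over several domains had less mRNA, except in the lowest quintile, where the medians were close. In the highest quintile of base pairs, median coverage was 19.7 in the 3166 genes with 1 domain (quartiles 9.39 and 47.1), against 9.78 in the 639 genes with more (quartiles 5.01 and 21.8). In the quintile below it the medians were 12.2 and 7.70, in the middle one 9.44 and 6.06, and in the lowest 4.46 and 4.30. In the highest quintile the genes with several domains were longer (median 3434 against 2115 bp) and their score per bp lower (1.21 against 1.72). They also had more base pairs under the mark (median 1464 against 1293 bp). The part of any of these in the difference was not tested. The 440 genes with both ends under H3K4me3 were short (median 999 bp) and had a median coverage of 24.4 (quartiles 7.69 and 92.1).

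Read from the mRNA side, the dose was higher or equal in each successive class of coverage, with the widest steps in base pairs at both extremes and in score per bp at the low end. From the lowest 10% of coverage within length deciles to the next 10%, the median amount went from 600 to 695 bp and score per bp from 0.780 to 1.08. Through the middle, from the class next above these 2 to the third highest, it went from 749 to 871 bp and from 1.21 to 1.49. From the second highest class to the highest it went from 900 to 1050 bp and from 1.55 to 1.67. The share of genes with a gap of 0 was 30.5% in the lowest class, 45.1% in the next and between 52.3 and 62.8% in the other 8.

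The relations were alike on all 8 main scaffolds, which carried between 1702 and 3243 genes of the set each. Matched Spearman correlations lay between 0.38 and 0.42 for base pairs, between 0.36 and 0.40 for score per bp and between -0.21 and -0.17 for the gap. The ratio of highest to lowest quintile of base pairs ranged from 3.71 to 5.15. The remaining 389 genes lay on smaller scaffolds.

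Within the set, genes with little or thin H3K4me3 carried the Polycomb mark H3K27me3 more often than the others. H3K27me3 covered at least 200 bp of 27.3% of the genes in the lowest quintile of score per bp (exact 95% interval 25.8 to 28.7%) and of 3.62% in the highest (interval 3.05 to 4.26%), with lower shares in each successive quintile. By base pairs the shares were 19.8% in the lowest quintile and 7.18, 6.88, 7.92 and 9.01% in the others. Over all 24268 listed genes, 4157 had at least 200 bp of H3K27me3. The lowest quintile by base pairs was only slightly above that share, and the other quintiles lay below it. H3K27me1, known from heterochromatin, was found in 11.7% of the lowest and 1.97% of the highest quintile of score per bp. 5mC, the methylated base known from transposons and from the bodies of transcribed genes, varied less, from 10.9% in the lowest to 7.99% in the highest. Over all listed genes, 1934 had at least 200 bp of H3K27me1 and 2663 of 5mC. The 10.9% for 5mC was close to its share over all genes.

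**Figure D5:**
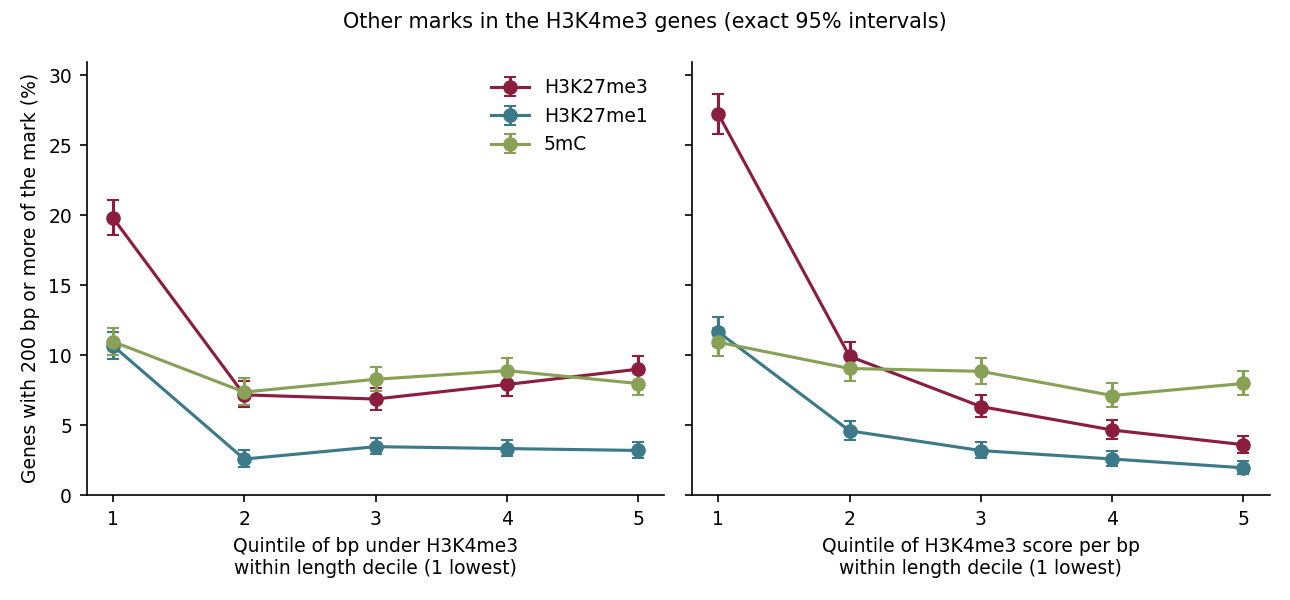
Share of the H3K4me3 genes with at least 200 bp of H3K27me3, H3K27me1 or 5mC, by quintile of base pairs (left) and of score per bp (right) within length deciles, with exact 95% intervals. H3K27me3 was in 27.3% of the genes with the thinnest H3K4me3 and in 3.62% of those with the densest.

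The dose relation was present both with and without these marks. Among the 15339 genes with H3K4me3 alone the Spearman correlation of base pairs with coverage averaged 0.39 over 5 length groups, and that of score per bp 0.32. Among the 1976 genes that also had H3K27me3 the correlation for base pairs was 0.36, at a lower coverage (median 3.85 against 10.3) and with a thinner mark (median score per bp 0.829 against 1.40). It was 0.38 among 917 genes with H3K27me1 (median coverage 2.85) and 0.38 among 1048 genes with 5mC and neither H3K27 mark (median coverage 9.77). The gap had a correlation of -0.12 among genes with H3K4me3 alone and 0.051 among those with H3K27me1, where it ranged from -0.067 to 0.25 over the 5 length groups. Differences between these sets were not tested.

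Single genes departed far from their dose class, and 4 are given by a rule that took the extremes of mRNA in the top and bottom 10% by base pairs. AL6G18760 (scaffold 6, 3373377 to 3375805) had 2305 bp of H3K4me3 in 1 domain, 94.9% of its span, at a score per bp of 1.05 and a gap of 0, and was listed at a coverage of 1. The 191 genes of its length decile and class had a median of 21.1, and it was the 1 gene among them at that value. It had 0 bp of the other 3 marks. AL7G44560 (scaffold 7, 19944675 to 19950855) was also listed at 1, with 1950 bp of H3K4me3 in 4 domains at a low score per bp of 0.506. H3K27me3 covered 4426 bp, H3K27me1 5926 bp and 5mC 5581 bp of its 6181 bp. In the other direction, AL2G34250 (scaffold 2, 16900583 to 16901113) had a coverage of 977.8 with 300 bp of H3K4me3 at 0.813 per bp, against a median of 2.81 in its class of 219 genes. AL7G29040 (scaffold 7, 7958759 to 7960155) had 542.2 with 450 bp at 0.498 per bp, while H3K27me3 covered all 1397 bp of its span. The files pair none of these identifiers with a gene name, and positions are on the scaffolds as deposited, whose build is not given in the sources used here.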

How the data were processed

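Per the submitters' processing notes, Bowtie and SICER were used, with no version; build, calling settings and pooling of replicates are not stated in those notes. The authors deposited 1 list of domains per mark with a whole-number score, on a 150 bp grid for H3K4me3 (21676 domains), and a table of mean exon coverage, a signal with no stated normalization, for 24268 genes. Sequencing depth is unknown, so the precision of low coverage is unknown too, and genes without reads may be missing. Per the labels' protocols, 20 ng of DNA went into each precipitation or input library and 1 µg of RNA into the mRNA library.

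Domains were laid on gene spans, and a gene entered with at least 200 bp. Score per bp was weighted by the base pairs of each domain inside the gene. Spearman correlations and ratios of median coverage (highest over lowest quintile; for the gap, above 0 over 0) were computed in each of 10 length deciles and averaged, ratios as a geometric mean. Ties stayed in 1 class, so quintiles of base pairs differ in size. No test was run, since genes are not replicates. The procedure was run on simulated data with a measure that had no ties and was unrelated to length. The run does not cover measures that are tied or related to length, as several here are. Shares have exact (Clopper-Pearson) 95% intervals. The members, measures and alternatives were chosen with earlier results of these data known, and the splits by domain width, domain number and domains crossing an end after the values were seen. None of the identifiers (0 of 24268) was found among the 34365 genes of the RefSeq v.1.0 table, so names, pathway lists and sequences were not used here. Named genes were, within length deciles, the 2 of the top 10% by base pairs with the lowest coverage (ties by more base pairs) and the 2 of the bottom 10% with the highest. Python 3.11.15, numpy 2.4.6, pandas 2.3.3, scipy 1.17.1 and matplotlib 3.10.9 were used.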

Additional observations from a re-analysis of the deposited data

How the results depend on the processing

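Of 120 recomputed values, 106 moved by less than the SD over length deciles, 12 moved by more with the same sign and 2 changed sign. That SD is the spread between length deciles and not an error, and the values share genes and measures. For the ratios it was wide, 1.43 for base pairs, 1.94 for score per bp and 2.20 for share. The share ratio of 2.65 with the top 50% of domains, against 4.33, is thus among the 106. Both changes of sign came from measuring the gap to the midpoint of the longest covered stretch: the matched correlation was then 0.26 and the ratio 2.40. By construction a midpoint lies further in when the stretch is wider, and its distance had a Spearman correlation of 0.78 with base pairs. With the top 50% of domains by score (11127 genes), matched correlations were 0.28 for base pairs, 0.30 for share, 0.14 for score per bp and -0.053 for the gap, ratios 2.47 for base pairs, 1.499 for score per bp and 0.931 for the gap, and the partial correlation of score per bp 0.15. By construction this setting removes the domains of low score. With a minimum of 400 bp the correlation for base pairs was 0.37. Without genes carrying another mark, score per bp had 0.32 and a partial correlation of 0.197. Among the 9043 genes whose domains did not cross an end, an alternative added after the values were seen, the ratio for base pairs was 5.49. The causes of these moves were not tested. With 100 length bins, also added, the values moved by less than the SD. No paired analysis was possible because each mark has 1 list for its 2 libraries and the mRNA 1 library, and for the same reason no replicate could be left out. Depth and calling settings, which limit how many weak domains are listed, could not be varied.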

Other observations

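The same measures were taken for the other marks, each among the genes with at least 200 bp of it, as a description that was added after the values were seen. More base pairs of H3K27me3 went with less mRNA at matched length (mean within-decile Spearman -0.14 over 4157 genes), as did more base pairs of H3K27me1 (-0.17 over 1934 genes) and of 5mC (-0.34 over 2663 genes). Score per bp had little relation to coverage for these marks (-0.048 for H3K27me3, 0.068 for H3K27me1 and 0.046 for 5mC), while for H3K4me3 it was 0.39. A gap away from both gene ends went with more mRNA for 5mC (0.23, and 2.05 times the median coverage of genes with a gap of 0), the opposite sign to H3K4me3. For 5mC the gap was not examined at a given number of base pairs, so the 2 measures are not separated there. Differences between marks were not tested, and the lists were called on grids of different spacing, with calling settings and depths that are unknown.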
